A study of Mus musculus with 9 samples.

Results

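The Map4k3 and Map4k4 loci were examined for sites whose chromatin accessibility changed when ERK signalling was switched on in mouse embryonic stem cells. Both genes were selected on the number of opening sites that a deposited list of changed sites holds near them, and each site in turn was chosen by its position, with its centre within 100 kb of the gene body. Of the 19165 sites in that list, 40 met this rule, 24 at Map4k3 and 16 at Map4k4. Their presence in the list, their direction and their size of change come from the contrast that chose the genes, so these values are given as a description and no test was made on them.

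The assay was ATAC-seq, where a transposase (Tn5) cuts and tags open DNA in purified nuclei. The cells were of the E14tg2a line (129SV background) and all of them, controls included, carried a stable cRAF-ErT2 cassette, a form of the kinase RAF joined to an altered estrogen receptor part, which 4-hydroxytamoxifen (4OHT) switches on so that ERK is activated. All were cultured in serum with LIF and 2 µM Chir99021, a GSK3 inhibitor, and spent the 24 h before treatment in serum with LIF and 250 nM PD173074, an FGF receptor inhibitor. The 3 control libraries came from untreated cells (0 h) and the 6 others from cells given 250 nM 4OHT for 1 h (3 libraries) or 2 h (3 libraries). No library came from cells without the cassette or from vehicle-treated cells, so ERK activity and other effects of 4OHT cannot be told apart. The labels do not say whether the stable line is 1 clone.

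The table holds 1 mean per side, taken to be in log2 normalized reads, with 1 h and 2 h pooled on the 4OHT side. No value per library was at hand, so levels carry no SD here, and the spread between libraries enters only through the authors' p-value and false discovery rate (FDR). On the 4OHT side that spread may include a difference between 1 h and 2 h. A change is the 4OHT level minus the control level on the log2 scale. In a bulk measurement, more cells with an open site and wider opening per cell cannot be told apart. Since only changed sites are listed, the labelled cell type could not be checked against marker genes, and a stretch without a listed site may hold open chromatin that did not change.

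MAP4K3 and MAP4K4 belong to the germinal centre kinase group of Ste20-like kinases, which have a kinase domain at the amino terminus and a citron homology domain at the carboxy terminus. Kinases of this group act upstream of the MAP3 kinases that lead to JNK, and several of them phosphorylate the LATS kinases of the Hippo pathway. MAP4K3, also called GLK, is known for amino acid signalling to mTORC1 and for activating PKC-theta in T cells. MAP4K4, also called HGK or NIK, is known for TNF signalling, focal adhesion turnover and cell migration, and mouse embryos without it show defects of mesoderm migration.

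Accessibility rose at 39 of the 40 sites and fell at 1. In the list as a whole, 52.6% of sites were higher after 4OHT and 47.4% lower. The listed sites were 7.86% of about 243900 tested sites, a number inferred from the p-values and FDR values of the authors' deposited table assuming Benjamini-Hochberg adjustment. At Map4k3, 23 sites rose and 1 fell, with a median change of 1.09 (quartiles 0.67 and 1.46), or 2.13-fold. At Map4k4 all 16 sites rose, with a median change of 1.28 (quartiles 0.89 and 1.44), or 2.43-fold. The locus rule used this contrast, so nothing is read from these shares.

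**Figure D1:**
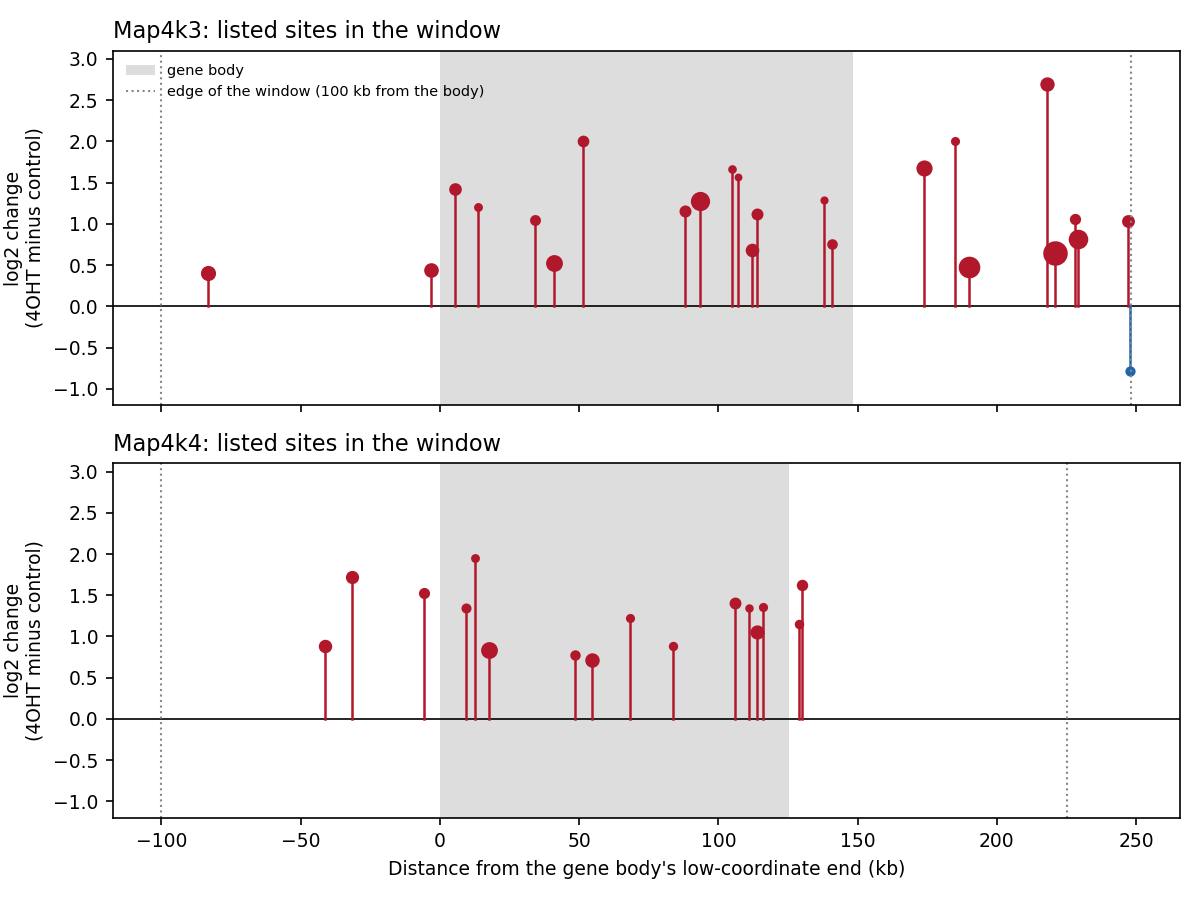
Log2 change (4OHT minus control, vertical axis) of each listed site against its distance in kb from the low-coordinate end of the gene body (horizontal axis). Grey marks the gene body, dotted lines the edge of the 100 kb window, larger points wider sites, red a gain and blue a loss. At Map4k3 the gains run past the high-coordinate end, with the largest, 2.70, at 69.9 kb beyond it, whereas the Map4k4 gains lie within 41.4 kb of that gene's body.

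The Map4k3 gene body spans chr17:80580513-80728806 (mm10), or 148 kb, and held 13 of the 24 sites. It is read from the reverse strand, so its high-coordinate side is upstream of the gene. On that side lay 9 sites, and on the low-coordinate, downstream side 2. The Map4k4 body spans chr1:39900902-40026310, or 125 kb, and held 11 of its 16 sites, with 3 on the low-coordinate side and 2 on the high-coordinate side. The density inside the bodies was nearly equal, at 8.77 listed sites per 100 kb in each gene. Exons and introns were not told apart, since the gene table used gives only gene ends.

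No listed site overlapped the annotated start of Map4k3. The nearest one had its centre 6.16 kb downstream of that start, or 6.94 kb inside the end of the body. The nearest on the upstream side lay 26.0 kb outside the body. The promoter is shown because listed sites lie on both sides of it and none covers it. It runs from 250 bases before to 50 after the RefSeq start (GRCm38.p6, chr17:80727976-80728275, reverse strand, printed 5′ to 3′), and capitals mark matches to the KLF core motif CACCC on either strand. The printed bases lie inside the annotated body, which ends at 80728806 on this side, and partly within the pseudogene Gm9959.

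Map4k3 promoter: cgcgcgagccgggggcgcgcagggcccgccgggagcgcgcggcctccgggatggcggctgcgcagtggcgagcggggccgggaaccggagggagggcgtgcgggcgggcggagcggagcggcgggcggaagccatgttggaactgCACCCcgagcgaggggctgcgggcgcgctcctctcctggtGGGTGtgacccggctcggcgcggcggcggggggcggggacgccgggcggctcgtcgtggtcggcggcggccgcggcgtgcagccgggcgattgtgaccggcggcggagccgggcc

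These 300 bases were 82.7% G or C and held 55 CpG dinucleotides, against medians of 52.7% and 7 over 32851 RefSeq promoters of the same length, of which 99.75% held fewer CpG. Of 7 motifs searched on both strands, CACCC was found at 2 places, once on each strand, and 57.5% of the promoters hold it. No match was found for AP-1 (TGACTCA, in 5.20% of promoters), CRE (TGACGTCA, 1.79%), ETS (CCGGAAG, 8.86%), EGR (GCGTGGGCG, 0.612%), the TATA box (TATAAA, 13.6%) or the SRF box (1.63%). With matches to a single motif, no overlap between motifs arose. A match describes letters only. Map4k4 had no entry in the promoter table. No annotated miRNA hairpin lay within either window (0 found).

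Inside Map4k3, accessibility rose at all 13 sites, by 0.52 to 2.01 with a median of 1.21. Control levels there ran from 4.11 to 8.77 in log2 normalized reads, with a median of 5.91. The site with the smallest p of the locus, at chr17:80687676-80687813, was also its narrowest at 138 bp. It went from 4.69 to 6.26, or from 25.8 to 76.6 normalized reads, and the authors' deposited table gave it an FDR of 3.80e-06. A neighbouring site 1564 bp away, at chr17:80685906-80686111, went from 4.11 to 5.78, with an FDR of 3.01e-05 in the authors' deposited table. These sites had low starting levels, below 5 on the log2 scale, and both roughly tripled, at 2.97-fold and 3.18-fold.

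The largest gain inside the Map4k3 body was at chr17:80631759-80632230, which went from 5.91 to 7.92, or 4.03-fold. Its FDR in the authors' deposited table was 5.89e-03, close to the limit of 0.01, so a large change there came with a weak call. The smallest gain inside the body was at its site with the highest control level, chr17:80620997-80621911, which went from 8.77 to 9.29, or 1.43-fold. The widest site of the body, 1120 bp at chr17:80673291-80674410, went from 7.56 to 8.84, with an FDR of 7.29e-05 in the authors' deposited table. Between the fifth and the sixth site of the body lay 36.1 kb without a listed site, which parted the downstream group of 5 from the 8 nearer the gene start.

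Upstream of Map4k3, 8 of 9 sites rose. This side held the largest gain of either locus and the 2 most accessible sites of either locus. The largest gain, 2.70 or 6.50-fold, was at chr17:80798325-80799023, which went from 6.61 to 9.31, or from 97.7 to 635 normalized reads. The authors' deposited table gave it an FDR of 2.90e-05. Across a gap of 1472 bp lay the most accessible site of both loci, 1577 bp wide at chr17:80800496-80802072, which went from 10.59 to 11.24, a gain of 0.65. In reads, that smaller fold was the larger increase, 877 normalized reads against 537.

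Nearer to Map4k3 on the same side, a site 26.0 kb outside the body at chr17:80754371-80755225 rose from 7.10 to 8.78, and its FDR in the authors' deposited table was 2.32e-05. A narrow one at 36.6 kb, chr17:80765325-80765569, rose from 4.47 to 6.47, or 4.00-fold. The wide one that follows at 41.6 kb, 1328 bp at chr17:80769731-80771058, rose by 0.48, from 8.02 to 8.50, with the FDR of the locus closest to the limit, 8.79e-03 in the authors' deposited table. Wide sites with high control levels thus stood beside narrow sites with low ones, and the fold was larger at the narrow ones here.

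At 79.3 and 80.7 kb lay a pair of sites at Gm33596, a long non-coding RNA gene. The first, chr17:80807923-80808352, had its centre inside that gene, 906 bp from its low-coordinate end, and rose from 6.69 to 7.75. The second, chr17:80808900-80810048, rose from 10.11 to 10.93, and its centre was 40 bp outside the high-coordinate end of Gm33596. With a site at the high-coordinate end of Cdkl4, these were the 3 sites of the locus within 1 kb of the end of any annotated gene.

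The 1 site that fell was at the outer edge of the Map4k3 window, with its centre 99.4 kb from the body, at chr17:80827984-80828329. It went from 6.67 to 5.88, a change of -0.79 or a 1.73-fold loss, and the authors' deposited table gave it an FDR of 3.05e-03. Only 299 bp away, the site at chr17:80827116-80827684, with its centre at 98.6 kb, rose from 6.84 to 7.88. Both had close control levels and moved in opposite directions. The next listed site, just outside the window at 105 kb, rose by 0.91, and another at 117 kb rose by 1.88.

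On the downstream side of Map4k3, both sites had high control levels and small gains. The site at chr17:80577010-80577733 lay 3.14 kb outside the Map4k3 body and inside Cdkl4, a gene for a cyclin-dependent kinase-like protein, with its centre within 1 kb of the end of that gene. It went from 9.08 to 9.52, a gain of 0.44. The outermost site, at chr17:80497052-80497820, went from 10.05 to 10.46, a gain of 0.41, and was nearer to Sos1, which encodes a RAS guanine nucleotide exchange factor, than to Map4k3. With each site given to its nearest protein-coding gene, these 2 left the locus and Map4k3 kept 22 sites, 21 higher and 1 lower. A further listed site near Sos1, at 132 kb from Map4k3 and so outside the window, rose by 1.06.

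Over the whole locus the gains spanned a narrower range at Map4k4, from 0.72 to 1.95 in the 16 sites. Inside the bodies alone they were no more alike by their quartiles, 0.86 and 1.35 at Map4k4 and 1.05 and 1.42 at Map4k3. The call with the smallest p of either locus was at Map4k4, 4.68 kb beyond the high-coordinate end at chr1:40030763-40031208. This site rose from 5.05 to 6.68, or from 33.1 to 102.5 normalized reads, a gain of 1.63 on the log2 scale, and its FDR in the authors' deposited table was 9.82e-07. By p it stood at place 1070 among the 19165 listed sites. Its neighbour across 224 bp, at chr1:40030261-40030538, rose from 5.02 to 6.17. Together they are the high-coordinate edge of the locus, and no listed site followed for the rest of the window.

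Inside Map4k4, all 11 sites rose, with a median gain of 1.22 and a median control level of 5.43. The site at chr1:39913428-39913653 had the largest gain of the locus and went from 4.29 to 6.24, or 3.86-fold, with an FDR of 1.10e-04 in the authors' deposited table. A wider site 4332 bp further on, 914 bp at chr1:39917986-39918899, had the highest control level inside the gene and went from 7.43 to 8.27. Its FDR in the authors' deposited table was 2.65e-05. The site at chr1:40006164-40006649 went from 5.43 to 6.84, and its FDR in the authors' deposited table was 8.55e-05.

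The smallest gains at Map4k4 lay in the middle of the gene. The sites at chr1:39949222-39949582 and chr1:39955173-39955882 rose by 0.77 and 0.72, and were the first after a stretch of 30.3 kb without a listed site. The lowest control level of both loci was at chr1:40016309-40016561, which went from 4.03 to 5.39, or from 16.3 to 41.9 normalized reads. Its gain of 1.36 was close to the median of the locus.

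On the low-coordinate side of Map4k4, 3 sites rose. The outermost, at chr1:39859144-39859763, lay 41.4 kb from the body and inside the long non-coding RNA gene Gm35600. It had the highest control level of the locus and went from 8.44 to 9.32. The site at chr1:39868881-39869481 went from 5.64 to 7.36, the second largest gain of the locus at 1.72. The third, 5.58 kb outside the body at chr1:39895112-39895531, went from 6.21 to 7.74. None of the 16 sites lay within 1 kb of a gene end (0 found). Of the other protein-coding genes whose bodies reach into the window, Il1r2, an interleukin-1 decoy receptor gene, starts 58.4 kb away, Gm3646 lies 95.6 kb away, and neither held a listed site of the locus.

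**Figure D2:**
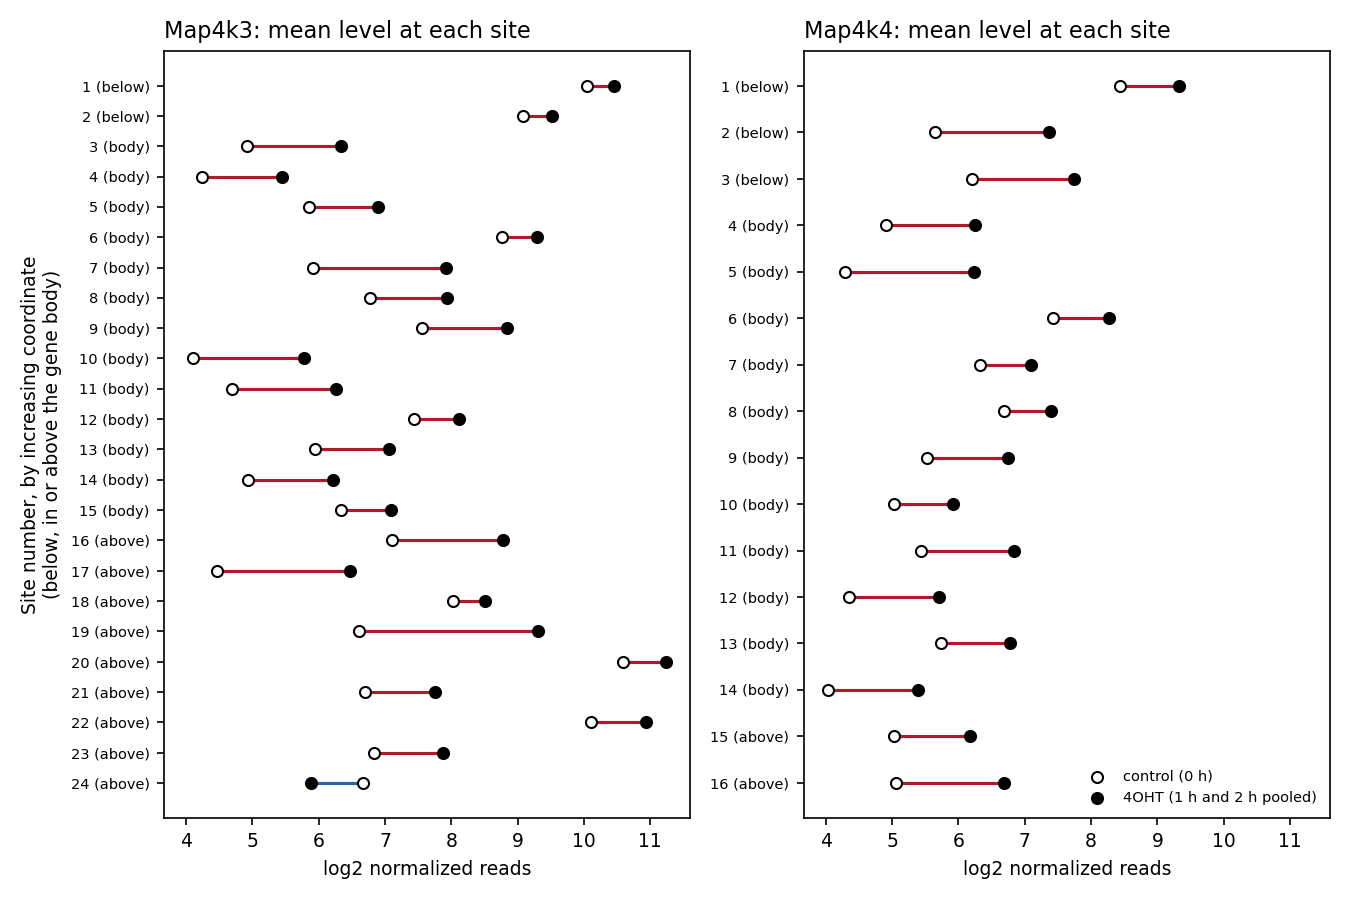
Mean level in control libraries (white) and in 4OHT libraries (black), in log2 normalized reads on the horizontal axis, for each listed site, numbered on the vertical axis by increasing coordinate, with its place below, in or above the gene body. Red lines are gains and the blue line is the 1 loss. The 7 sites of both genes with a control level of 8 or more move by 0.41 to 0.88, while the 10 sites of both genes with a control level below 5 move by 1.21 to 2.00.

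Starting levels are given side by side, with no test of the difference between the loci. At Map4k3 the median control level was 6.68, and 6 of 24 sites had 8 or more. At Map4k4 it was 5.48, and 1 of 16 sites had 8 or more. Over all listed sites that rose, the median was 5.43. The sites of high control level lay mostly outside the gene bodies, 5 of 6 at Map4k3 and 1 of 1 at Map4k4. The median width was 525.5 bp at Map4k3, 390.5 bp at Map4k4 and 408 bp over all listed sites that rose. Spearman's rho between width and control level across sites was 0.88 at Map4k3 (24 sites) and 0.80 at Map4k4 (16 sites), against 0.75 over all listed sites, which share the same libraries and peak calling.

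The gains at these loci were many and of moderate size beside others in the list. At 26 of the 40 sites (65.0%) the level rose by at least 1 on the log2 scale, against 40.8% of all listed sites. Among sites that rose the comparison turned round, with 26 of 39 (66.7%) here and 77.6% over the list. The median gain was 1.16 at the 39 sites and 1.46 over all listed sites that rose. A gain of at least 2 was found at 3 of the 39 sites (7.69%), all at Map4k3, and at 21.8% of the listed sites that rose.

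The same order held within ranges of the control level. At sites that rose from a control level below 5, the median gain was 1.39 in the 10 sites of these loci and 1.88 over the 4094 such sites of the list. From 5 to 8 the medians were 1.14 (22 sites) and 1.27 (4617 sites). At 8 and above they were 0.52 (7 sites) and 0.70 (1368 sites). Over sites that rose, Spearman's rho between the midpoint of both levels and the change was -0.60 at Map4k3 (23 sites) and -0.48 at Map4k4 (16 sites), against -0.66 over the 10079 such sites of the list. The control level enters the change and the list was bounded by FDR, so these are descriptions across sites of the same libraries.

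**Figure D3:**
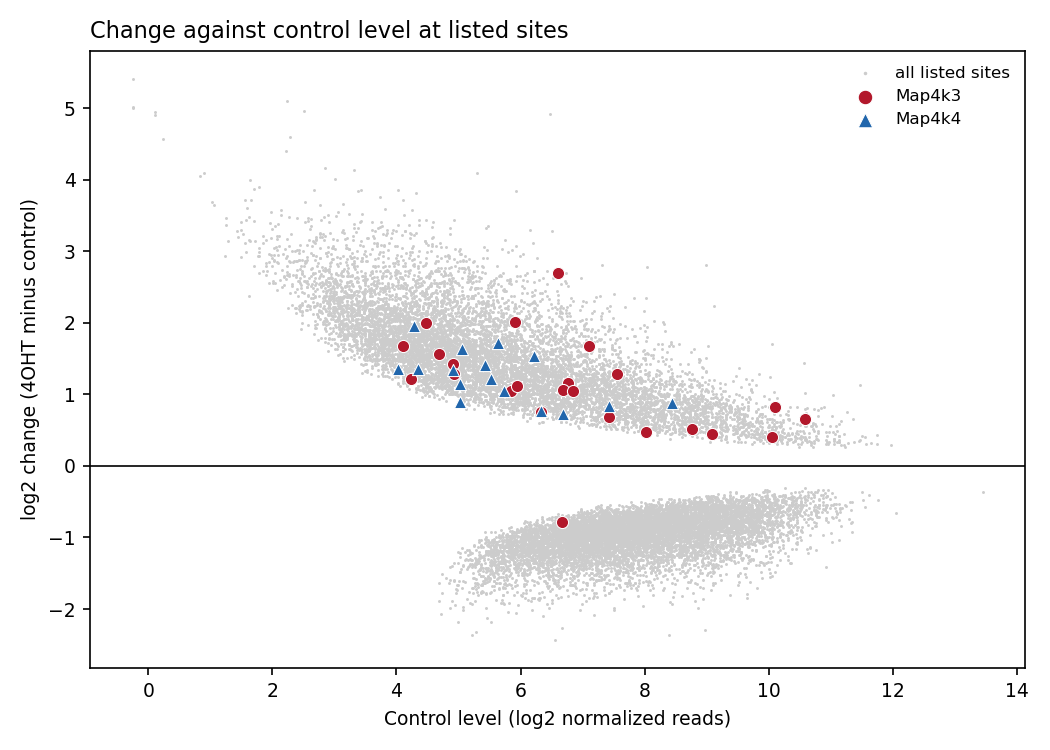
Log2 change (4OHT minus control) against the control level in log2 normalized reads, for all listed sites (grey) and those of Map4k3 (circles) and Map4k4 (triangles). The list holds only sites within the FDR limit, which leaves a band around 0 empty. The 39 gains of the members have a median of 1.16, against 1.46 for all gains, and the site with a gain of 2.70 stands above the other Map4k3 sites.

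Counted in reads, the totals over listed sites rose at both loci, which their choice on opening sites largely fixed beforehand. Summed over the 24 Map4k3 sites, which cover 14895 bp, the level went from 6373 to 11110 normalized reads, a ratio of 1.74, or from 428 to 746 per kb of site. Inside the gene body alone the ratio was 1.99, from 1289 to 2566. Over the 16 Map4k4 sites, which cover 7038 bp, it went from 1153 to 2444, a ratio of 2.12, or from 164 to 347 per kb. At Map4k3, 3 upstream sites supplied 47.7% of the net increase. At Map4k4, the 3 sites that gained most reads supplied 44.0%. Over sites that rose, the ratio was 1.76 at Map4k3 (23 sites) and 2.12 at Map4k4 (16 sites), against 1.99 over all listed sites that rose. Such sums cover listed sites only.

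Listed sites of this number in a gene of this length were uncommon. Of 1439 protein-coding genes between 100 and 200 kb long, 940 held a listed site and the median was 1 site. At least 11 were found inside 6 of them, and in 5 of these, Map4k3, Map4k4, Nrp2, Adam23 and Tle4, all sites were higher. These counts are the pattern that chose both genes. With sites given to the nearest protein-coding gene within 100 kb, 13 genes had at least 15. Of these, Nrp2 (1.13), Jarid2 (1.16) and Tle4 (1.065) had the median changes closest to that of Map4k3 (1.14 over its 22 sites), and Adam23 (1.31), Jarid2 and Nrp2 those closest to Map4k4 (1.28). Nrp2 encodes a neuropilin receptor, Jarid2 a Polycomb cofactor, Tle4 a Groucho corepressor and Adam23 a membrane protein of the disintegrin family.

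The windows of Jarid2 and Nrp2 were described by the same rule for comparison. Jarid2 had 44 higher sites and 1 lower, with a median change of 1.15, and Nrp2 had 25 and 1, with a median of 1.11. The spread of gains reached further at Map4k3, to 2.70, and at Nrp2, to 2.67, than at Jarid2, to 1.98, and Map4k4, to 1.95. None of these differences between loci was tested.

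The other MAP4K family genes had fewer listed sites, 0 to 10 each. Map4k1, a kinase of blood cells, had 9 higher sites and 1 lower within 100 kb, but only 1 lay inside this gene of 21.2 kb, at chr7:28985322-28985594, where the level went from 5.05 to 6.88. Of the others, 6 higher ones were nearest to Actn4, which encodes the actin crosslinker alpha-actinin-4. Map4k2, a kinase gene of 14.6 kb, had 4 higher and 1 lower, none inside it. Map4k5 had 2 sites, both lower, and the one inside it at chr12:69809472-69809737 went from 6.85 to 5.31, a change of -1.54 with an FDR of 9.90e-08 in the authors' deposited table. Tnik, the longest of the family at 409 kb, had 2 higher and 5 lower, and Mink1 had 0 listed sites. Without the sites of Map4k3 and Map4k4 the family had 15 higher and 9 lower sites (62.5% higher), with a median change of 0.97, beside 52.6% and 0.59 for all listed sites. That lean rested on the windows. With sites given to the nearest gene, Map4k1 kept 1 site (1 higher), Map4k2 0, Map4k5 1 (0 higher) and Tnik 5 (2 higher).

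Genes that act with these kinases had sites in both directions. A listed site within 100 kb is common, since 17113 of 21900 protein-coding genes (78.1%) had one, so the number of genes with a site is given only as a description. In the JNK and p38 cascade, all 18 genes had one, with 31 higher and 24 lower sites (56.4% higher, against 52.6% of all listed sites) and a median change of 0.80. Map3k13, a MAP3 kinase gene, had 5 sites, all higher, by 0.54 to 3.87, and only 2 of these were nearest to it. Mapk10, which encodes JNK3, had 4 higher and 1 lower, all nearest to it. Mapk14, which encodes p38 alpha, had 2 higher and 3 lower, all nearer to other genes, with a median change of -0.93. Mapk8ip3, a JNK scaffold gene, had 4 higher and 1 lower, and only 1 of these was nearest to it. Map3k10 had 4 higher and 2 lower, all nearer to other genes. Map3k5, which encodes the stress kinase ASK1, had 3 and 3, and only 1 of these, a higher one, was nearest to it. These windows can hold many other genes, and with sites given to the nearest gene the list had 12 higher and 6 lower (66.7% higher).

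In the Hippo pathway, 16 of 17 genes had a site, with 28 higher and 24 lower sites (53.8% higher, near the 52.6% of all listed sites) and a median change of 0.68. That direction rested on the windows, since with sites given to the nearest gene it had 17 higher and 20 lower, with a median of -0.59. Tead1, a transcription factor gene of the pathway, had 3 higher and 4 lower sites, and its relative Tead4 had 4 higher and 1 lower. Amotl2, an angiomotin family gene, had 1 higher and 4 lower, and Vgll4, a TEAD cofactor gene, also had 1 and 4. Wwc1, which encodes the scaffold KIBRA, had 2 higher and 3 lower. Lats1, which encodes a kinase that MAP4K proteins phosphorylate, had 4 higher sites, all nearer to other genes. Yap1, the transcriptional coactivator gene, had 2 lower sites. Nearest to the named gene were 7 of the sites at Tead1, 4 at Tead4, 5 at Amotl2, 3 at Vgll4, 4 at Wwc1 and 1 at Yap1.

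For mTORC1 and amino acid signalling, 10 of 11 genes had a site, with 30 higher and 13 lower sites (69.8% higher, against 52.6% of all listed sites) and a median change of 1.02. With sites given to the nearest gene there were 12 higher and 7 lower (63.2% higher), with a median of 1.19. Within 100 kb, Rptor, the raptor subunit gene, had 17 sites, 12 higher and 5 lower. Of the 8 sites nearest to Rptor, 4 were higher. Tfeb, a lysosomal transcription factor gene, had 2 higher and 4 lower sites, and the 2 nearest to it were lower. Tsc2, an inhibitor of the pathway, had 2 and 2, all nearer to other genes. Mtor, the kinase gene itself, and Rragc, a Rag GTPase gene, had 3 higher sites each. Of these, 1 was nearest to Mtor and 2 to Rragc. Mlst8, another subunit gene, had 2 higher and 1 lower, all nearer to other genes. Prkcq, which encodes PKC-theta, had 3 sites, all higher, by 0.75 to 1.95. In the STRIPAK phosphatase complex, which binds MAP4K kinases, 6 of 8 genes had a site, with 13 higher and 5 lower (72.2% higher, against 52.6% of all listed sites). Nearest to a gene of the complex were 3 sites, too few to set beside that share, and each was higher. Strn3, a striatin gene, and Mob4 each had 3 higher and 1 lower, and each was the nearest gene of only 1, a higher one. Strn4, another striatin gene, had 1 and 2, all nearer to other genes.

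Among 6 focal adhesion and cytoskeleton genes, all had a site, with 17 higher and 8 lower sites (68.0% higher, against 52.6% of all listed sites) and a median change of 0.99. With sites given to the nearest gene there were 16 higher and 2 lower (88.9% higher), with a median of 1.53. Iqsec1, an ARF6 exchange factor gene, had 5 higher and 1 lower, with gains up to 3.72. Pxn, the paxillin gene, had 3 and 3 within 100 kb, and the 3 nearest to it were all higher. Ptk2, the focal adhesion kinase gene, had 2 higher and 3 lower within 100 kb, and the 2 nearest to it were higher. Itgb1, the integrin beta-1 gene, had 4 sites, all higher, by 0.52 to 1.34. The lists hold few sites each, and no difference from the list as a whole was tested.

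**Figure D4:**
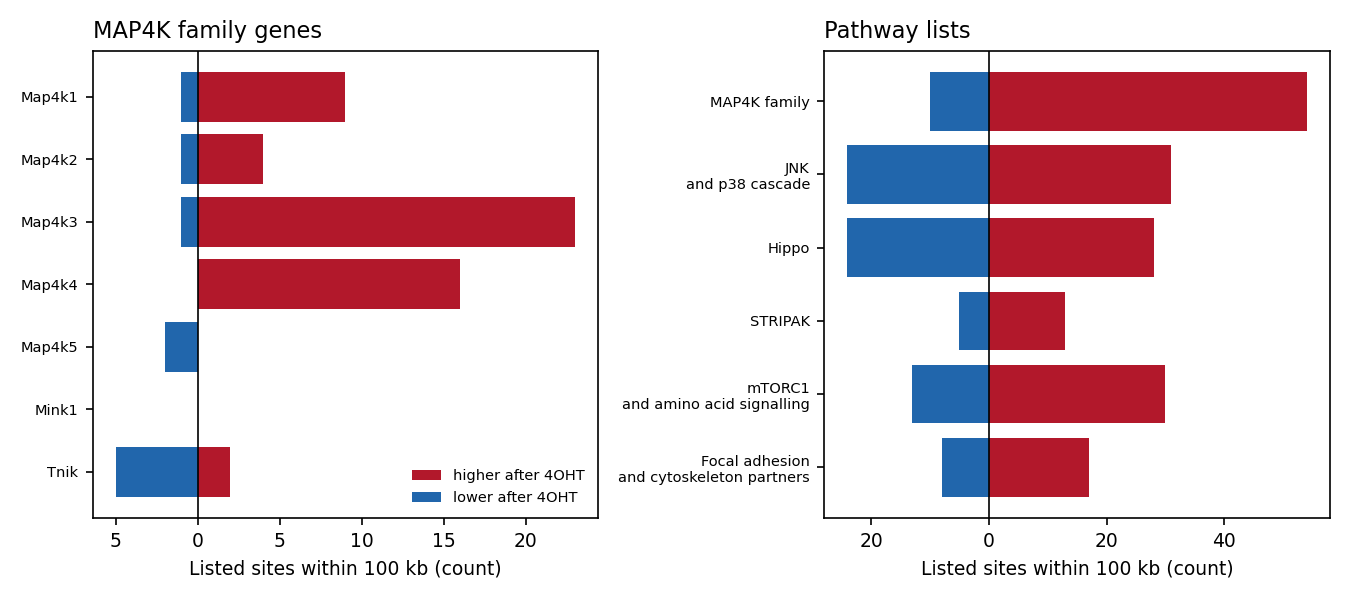
Number of listed sites within 100 kb (horizontal axis) that were higher (red, to the right of 0) or lower (blue, to the left) after 4OHT, for each MAP4K family gene (left) and for the pathway lists (right). Map4k3 and Map4k4 hold 39 of the 54 higher sites of the family.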

How the data were processed

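ATAC-seq was done on 9 libraries, 3 each at 0, 1 and 2 h of 4OHT. Labels do not say whether A, B and C are separate cultures, so the p-values reflect spread among libraries that may be technical replicates. Descriptions tag title B as B2 and title C as B, so the replicate names are uncertain. Bowtie2, bedtools and MACS2 and the build mm10 are named per the submitters' processing notes. The sources used here do not give the differential test, the read filters, any Tn5 offset or the depth of each library, so the precision behind a level is unknown. Levels and fold are the authors' values, taken here as log2 normalized reads, a unit that the headers do not spell out. The p-value and FDR are the authors' deposited values, per the file headers. Nothing was refitted. The fold in the table is control minus 4OHT to within 0.01, and the overall level fitted weights of 3 control to 6 4OHT libraries to within 0.00986, from which pooling of 1 h and 2 h was inferred. The largest FDR was 0.01.

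Genes and promoters came from RefSeq tables of GRCm38.p6 (49997 genes, 21900 protein-coding). A site was counted for a gene when its centre lay within 100 kb of the body. Gene lists count each site once per list. The members and lists were chosen with earlier results of these data known. Sites were named by rule: per locus the 4 with the smallest p, the 2 largest and the 2 smallest changes, the 2 highest control levels, every lower site, sites within 1 kb of a gene end and the outermost ones. Of each list, up to 4 genes with the most sites were named, ties included, except 1 that is not reported here. Further sites were named after their values were seen, as were Lats1 and Yap1. No test was made. The distance rules were checked on made sites with known answers. Alternatives were other windows, stricter limits, the nearest gene and sites away from gene ends. Site sequences were not used here. Python 3.11.15, pandas 2.3.3, numpy 2.4.6 and matplotlib 3.10.9 were used.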

Additional observations from a re-analysis of the deposited data

How the results depend on the processing

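Every alternative run kept the direction of the median change at both genes, and the lower count at Map4k4 was 0 in each. Both genes were chosen on their opening sites, and every run but the window of 200 kb recounted only sites of the same loci. The kept direction and the absence of lower sites at Map4k4 were therefore largely fixed beforehand and are no support. A count was taken as moved when it differed by more than 1.5 times, and a median when it differed by more than 0.1 on the log2 scale. Map4k3 had 13 higher and 0 lower sites with a median of 1.21 in the gene body alone, 14 and 0 within 10 kb, and 0 lower with a median of 1.21 within 50 kb. It had 10 higher and 0 lower with a median of 1.43 at an FDR under 0.001, and 15 and 0 with a median of 1.29 at changes of at least 1. Map4k4 had 8 higher sites at an FDR under 0.001. The stricter limits remove sites and small changes by construction. No other alternative moved a locus value past these limits (34 of 48 values). No paired analysis was possible because the table holds no values per library. For the same reason no library could be left out, and depth limits could not be given.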

Other observations

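Beyond the 100 kb windows, the listed sites between 100 and 200 kb from either gene body were all higher, against 52.6% of all listed sites. They were few, most were nearest to other genes, and the difference was not tested. At Map4k3 these were 3 sites, with changes of 0.91 (nearest to Map4k3), 1.06 (nearest to Sos1) and 1.88 (nearest to Tmem178). At Map4k4 they were 3, of which the pair at 162 and 164 kb on the low-coordinate side, nearest to Rfx8, a gene of the RFX transcription factor family, changed by 0.86 and 1.35. The third, 141 kb beyond the high-coordinate end and nearest to Il1r2, changed by 1.47.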
